A study of Homo sapiens with 12 samples.

Results

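The ATF4 axis is described here by 34 genes of the integrated stress response, comprising ATF4 and 7 other transcription factors, 5 feedback and effector genes, 8 enzymes of amino acid and one-carbon metabolism, 5 amino acid transporters and 8 tRNA synthetases. Genes were taken by their gene name in both deposited comparisons, which found all 34 of 34 among the 25914 genes listed. RNA-seq covered 4 groups of 3 libraries each, 12 in all: RPE-1 hTERT cells with DMSO, RPE-1 hTERT cells with 10 µM Nutlin-3a, HCT116 cells with DMSO, and HCT116 cells with 10 µM Nutlin-3a, each for 24 h. RPE-1 is a noncancerous line from retinal pigment epithelium immortalized with telomerase, HCT116 is a colon cancer line, and both are labelled wild-type. Nutlin-3a blocks the binding of MDM2 to p53 and thereby stabilizes p53. HCT116 cells were kept in high-glucose DMEM with pyruvate and RPE-1 cells in DMEM:F12, so that line and medium cannot be told apart.

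The integrated stress response starts with kinases that phosphorylate the translation initiation factor eIF2 when amino acids run short, when proteins misfold in the endoplasmic reticulum, or upon viral infection or heme shortage. General translation then slows, whereas the ATF4 mRNA, with its upstream open reading frames, is translated more. ATF4 pairs with C/EBP factors and activates genes for the synthesis and uptake of amino acids, for charging tRNAs and for feedback. Because ATF4 is controlled largely in translation, its mRNA is not a measure of the ATF4 protein, which was not measured here.

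Values are the log2 fold change of Nutlin-3a over DMSO within a line (log2FC), its standard error (SE), and a p-value from DESeq2 with Benjamini-Hochberg adjustment over all 25914 genes. A gene is called lower or higher where its adjusted p is under 0.05. The comparisons combine the 3 libraries of a group, so values per library and reads per library are unknown, and precision is read from the SE, whose median over the 34 genes was 0.16 in both lines. The study's methods call the RPE-1 replicates biological. For HCT116 no source used here says that they were separate cultures, so the spread between its libraries may be technical. SEs were also nearly equal in both lines, for example 0.109 for ATF4 in each. Both comparisons may therefore come from a joint fit with shared dispersions. The p-values of a line then need not rest on the spread among its own libraries. The mean normalized count of a gene (base mean) was the same number in both comparisons, and genes with a log2FC of exactly 0 in both reached base means of 234.0. It therefore averages more libraries than these 12, levels in either line are unknown, and markers of the lines could not be checked. Base means of the 34 genes ranged from 109.3 for ALDH1L2 to 26657 for SLC38A2. In bulk RNA, fewer cells expressing a gene and less RNA per cell cannot be told apart. As a check of the treatment, MDM2 (log2FC 3.95 in RPE-1 and 4.14 in HCT116) and CDKN1A (3.94 and 4.12), both direct p53 targets, rose in both lines.

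ATF4 acts through the C/EBP-ATF response element, a composite site with the core TGATGNAA, where N is any base. The letters were searched on both strands of RefSeq promoters, each from 250 bases before to 50 bases after an annotated transcription start (300 bases, GRCh38.p14). Promoters were listed for 30 of the 34 genes, and 13 of these (43.3%) held the core in at least 1 promoter, compared with 1217 of 27305 genes (4.46%) in the whole table. The members were chosen as genes of the ATF4 axis, so a higher share was likely from that choice alone and is no result of these data. Since genes with several starts have several promoters, the shares were also taken per promoter, which gave 13 of 50 (26%) and 3.62% of all 35116. With the core wholly before the start, 8 of the 30 genes (26.7%) remained, compared with 1061 of all 27305 genes (3.89%). These stretches are shown because they carry the core, in capitals, in the order of the members' roles. Each is written 5′ to 3′ along the strand of its gene, and TTGCATCA or TTTCATCA is the core read from the opposite strand.
ATF3, chr1:212565205-212565234, plus strand: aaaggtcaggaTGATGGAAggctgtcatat
CEBPG, chr19:33374060-33374089, plus strand: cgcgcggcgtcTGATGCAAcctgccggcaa
JDP2, chr14:75427995-75428021, plus strand: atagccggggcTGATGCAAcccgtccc
CHAC1, chr15:40953251-40953280, plus strand: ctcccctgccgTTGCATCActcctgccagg
ASNS, chr7:97872458-97872487, minus strand: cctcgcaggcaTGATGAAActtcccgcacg
SLC1A5, chr19:46784893-46784922, minus strand: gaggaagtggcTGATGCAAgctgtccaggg
GARS1, chr7:30594834-30594863, plus strand: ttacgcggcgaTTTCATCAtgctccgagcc
AARS1, chr16:70289675-70289704, minus strand: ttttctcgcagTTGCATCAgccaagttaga

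The first base of the core lay 191 bases before the start in ATF3, 42 in CEBPG, 16 in JDP2, 209 in CHAC1, 68 in ASNS, 97 in SLC1A5, 33 in GARS1 and 187 in AARS1. CEBPG, JDP2 and SLC1A5 shared the core TGATGCAA, and CHAC1 and AARS1 carried the same letters on the opposite strand. Most of these genes have further starts upstream, so that in GENCODE 44 the core lay in an exon of another transcript of ASNS, CHAC1, SLC1A5, GARS1 and AARS1, in an intron of CEBPG and JDP2, and outside the gene for ATF3. In CARS1, MARS1, NARS1, SLC3A2 and SLC7A1, the core overlapped or followed the start. PSPH, SHMT2, ALDH1L2 and NUPR1 had no promoter entry. A match of letters is a description and no evidence of binding, which was not measured.

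Across the axis, Nutlin-3a lowered most genes within each line, but not always the same genes. The 34 genes were chosen with earlier results of these data known, so the counts over them are descriptions. In RPE-1, 22 of 34 genes (64.7%) were lower and 5 were higher, while 13.6% of all listed genes were lower and 19.3% were higher. In HCT116, 21 of 34 genes (61.8%) were lower and 2 were higher, against 12.2% and 14.9% of all genes. Highly expressed genes are called more often, and among 13990 genes whose base mean reached 100, all members among them, 20.8% were lower and 29.7% higher in RPE-1, and 18.4% were lower and 22.4% higher in HCT116. The median log2FC of the 34 genes was -0.59 in each line, compared with 0.08 in both over 20764 genes whose base mean reached 10. Lower in both lines were 15 genes, namely CEBPG, JDP2, ASNS, PHGDH, PSAT1, SHMT2, MTHFD2, PCK2, SLC3A2, SLC7A1, WARS1, GARS1, MARS1, CARS1 and AARS1. That is 44.1% of the members, where 6.48% of all genes and 10.5% of those whose base mean reached 100 were lower in both. ATF3 alone was higher in both, which 7.23% of all genes were. ATF5, STC2 and SLC38A2 were higher in RPE-1 and lower in HCT116, and 2.05% of all genes were called in opposite directions in either order. PPP1R15A, ALDH1L2 and SARS1 were called in neither line.

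**Figure D1:**
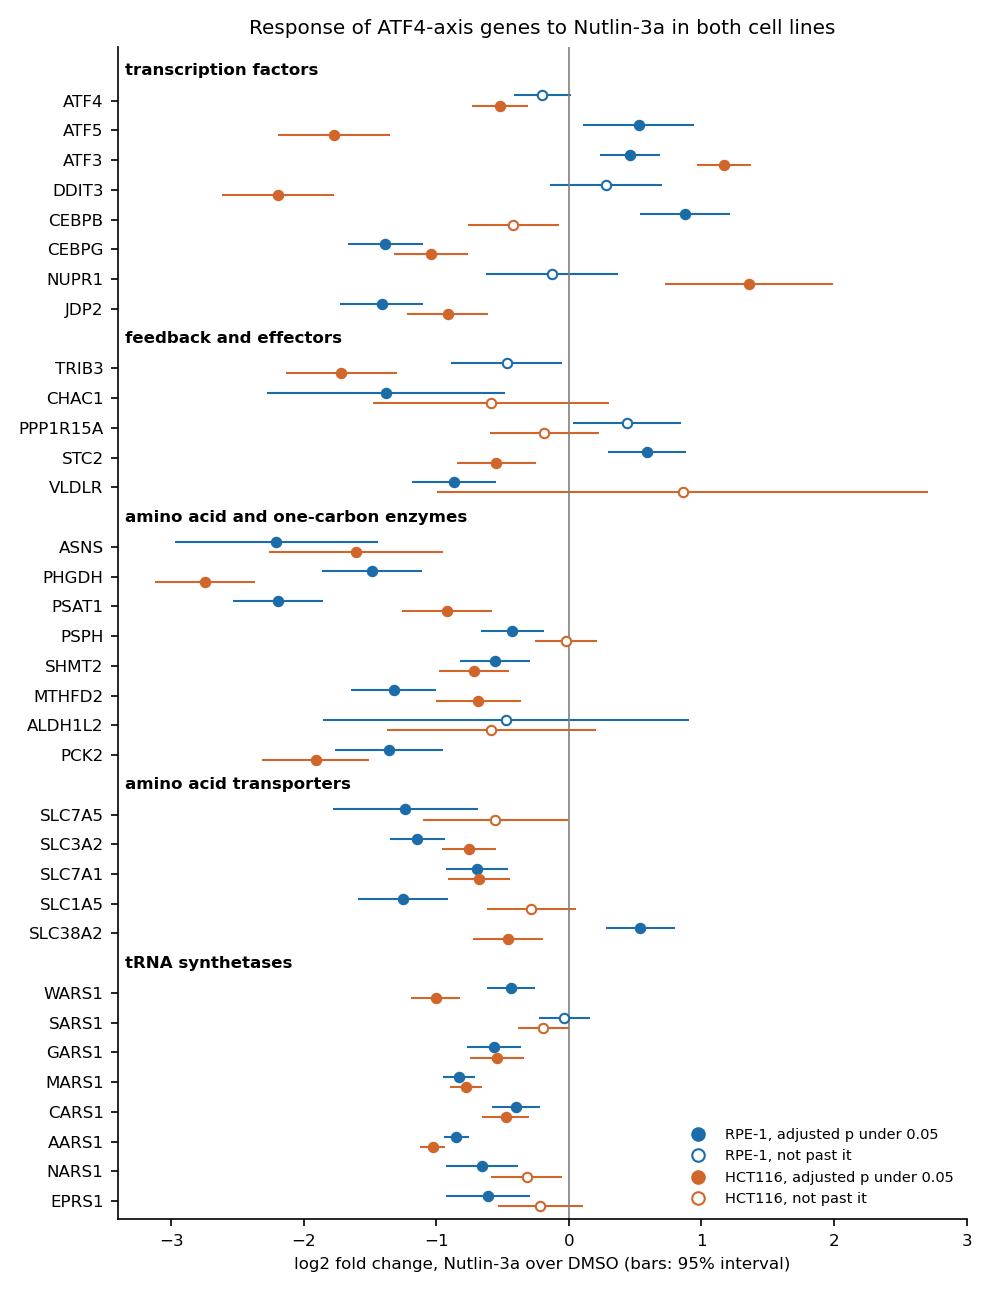
Log2 fold change of Nutlin-3a over DMSO (x axis) for the 34 genes grouped by role, in RPE-1 (blue) and HCT116 (orange). Points are estimates from 3 libraries per group, bars are 95% intervals, and filled points have an adjusted p under 0.05; the enzymes and synthetases lie below 0 in both lines, whereas the factors spread to both sides.

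The transcription factors did not share a direction. Of the 8, 2 (25%) were lower and 3 (37.5%) higher in RPE-1, and 5 (62.5%) were lower and 2 (25%) higher in HCT116. Among all genes whose base mean reached 100, these shares were 20.8% and 29.7% in RPE-1, and 18.4% and 22.4% in HCT116. ATF4 itself, the central activator, had a log2FC of -0.20 (SE 0.11) in RPE-1, which did not pass the test (adjusted p = 0.155, 95% interval -0.41 to 0.01). It passed once the median of all genes in that line was taken out (-0.28, adjusted p = 0.0348). In HCT116, ATF4 mRNA fell to 69.7% of the DMSO level (log2FC -0.52, SE 0.11, adjusted p = 1.58e-05). The difference between the lines was 0.32 (SE 0.15, 95% interval 0.02 to 0.62) and did not pass its own test (adjusted p = 0.13). CEBPG, a C/EBP protein that dimerizes with ATF4 and has the core in its promoter, fell to 38.3% in RPE-1 (log2FC -1.39, SE 0.14, adjusted p = 2.69e-20). It fell to 48.7% in HCT116 (-1.04, SE 0.14, adjusted p = 3e-12). JDP2, a repressor of the AP-1 family, fell to 37.6% in RPE-1 (-1.41, SE 0.16, adjusted p = 2.03e-17) and to 53% in HCT116 (-0.91, SE 0.15, adjusted p = 4.59e-08). Among the 8 factors, CEBPG and JDP2 were thus the pair that was lower in both lines.

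ATF5 and DDIT3 showed the widest gap between the lines among all 34 genes. ATF5, a relative of ATF4 that is likewise controlled in translation and acts in the mitochondrial stress response, rose 1.44-fold in RPE-1 (log2FC 0.53, SE 0.21, adjusted p = 0.044), a call that was lost with the median of all genes taken out (0.45, adjusted p = 0.0993). It fell to 29.3% in HCT116 (-1.77, SE 0.22, adjusted p = 6.21e-15). DDIT3, which encodes the stress-induced factor CHOP that can promote cell death, stood at a log2FC of 0.28 (SE 0.22, adjusted p = 0.366) in RPE-1. In HCT116 it fell to 21.8% (-2.20, SE 0.22, adjusted p = 7.76e-23), the second largest decrease of the members in that line after PHGDH. CEBPB, a C/EBP factor of inflammation and differentiation, rose 1.83-fold in RPE-1 (0.88, SE 0.17, adjusted p = 4.43e-06), and its log2FC of -0.42 (SE 0.17) in HCT116 narrowly missed the threshold (adjusted p = 0.0589).

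ATF3 and NUPR1 were the members that rose in HCT116. ATF3, a stress-induced factor that is a target of ATF4 and of p53, rose 2.25-fold in HCT116 (log2FC 1.17, SE 0.10, adjusted p = 4.19e-28). Its rise in RPE-1 was 1.38-fold (0.46, SE 0.12, adjusted p = 0.000359). NUPR1, a small stress-induced chromatin protein, rose 2.56-fold in HCT116 (1.36, SE 0.32, adjusted p = 0.000192) and had a log2FC of -0.13 (SE 0.25, adjusted p = 0.801, 95% interval -0.62 to 0.37) in RPE-1. In GENCODE 44, 16.5% of the exon bases of NUPR1 and 8.0% of those of DDIT3 also belong to another gene on the same strand, whose reads cannot be told apart.

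The feedback and effector genes had no shared direction, and none of the 5 was lower in both lines. Of all genes whose base mean reached 100, only 10.5% were lower in both, so this absence among 5 genes is no result about them. TRIB3, a pseudokinase that ATF4 induces and that restrains ATF4 in return, fell to 30.4% in HCT116 (log2FC -1.72, SE 0.21, adjusted p = 1.35e-14). In RPE-1 its log2FC was -0.47 (SE 0.21, adjusted p = 0.078). STC2, a secreted glycoprotein, rose 1.5-fold in RPE-1 (0.59, SE 0.15, adjusted p = 0.000525) and fell to 68.4% in HCT116 (-0.55, SE 0.15, adjusted p = 0.00189). CHAC1, which degrades glutathione, fell to 38.4% in RPE-1 (-1.38, SE 0.46, adjusted p = 0.0104) with a wide 95% interval of 20.6% to 71.8%. The interval of CHAC1 in HCT116, from a log2FC of -1.48 to 0.30, held both a decrease and an increase (adjusted p = 0.387). PPP1R15A, which encodes the phosphatase subunit GADD34 that reverses eIF2 phosphorylation, had a log2FC of 0.44 (SE 0.21, adjusted p = 0.0969) in RPE-1 and of -0.19 (SE 0.21, adjusted p = 0.595) in HCT116. VLDLR, a lipoprotein receptor, fell to 54.8% in RPE-1 (-0.87, SE 0.16, adjusted p = 6.26e-07). With an SE of 0.94, the largest of the 34 genes in HCT116, its change in that line was not resolved (0.86, adjusted p = 0.582).

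All 8 enzymes had negative log2FCs in both lines, 7 (87.5%) were lower in RPE-1 and 6 (75%) in HCT116. Among all genes whose base mean reached 100, 20.8% were lower in RPE-1 and 18.4% in HCT116. The serine synthesis pathway takes 3-phosphoglycerate through PHGDH, PSAT1 and PSPH, in that order, to serine. PHGDH, its first enzyme, fell to 35.8% in RPE-1 (log2FC -1.48, SE 0.19, adjusted p = 1.92e-13) and to 14.9% in HCT116 (-2.74, SE 0.19, adjusted p = 1.57e-44), the largest decrease of any member in either line. PSAT1, the transaminase of the next step, had the opposite order. It fell to 21.9% in RPE-1 (-2.19, SE 0.17, adjusted p = 7.99e-35) and to 52.8% in HCT116 (-0.92, SE 0.17, adjusted p = 1.11e-06). PSPH, the phosphatase of the last step, fell to 74.5% in RPE-1 (-0.43, SE 0.12, adjusted p = 0.0023). In HCT116, PSPH stood at 98.6% (95% interval 83.7% to 116%, adjusted p = 0.942), so that a decrease as large as that of PHGDH lay far outside its interval.

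SHMT2 and MTHFD2, mitochondrial enzymes that pass the carbon of serine on to folate, were lower in both lines. SHMT2 fell to 68% in RPE-1 (log2FC -0.56, SE 0.13, adjusted p = 0.000194) and to 61% in HCT116 (-0.71, SE 0.13, adjusted p = 1.24e-06). MTHFD2 fell to 40% in RPE-1 (-1.32, SE 0.16, adjusted p = 1.68e-14) and to 62.3% in HCT116 (-0.68, SE 0.16, adjusted p = 0.000223). ALDH1L2, the mitochondrial formyl-folate dehydrogenase, was the least expressed member by base mean and was not called, with log2FCs of -0.47 (SE 0.71, adjusted p = 0.692) and -0.59 (SE 0.40, adjusted p = 0.319). PCK2, the mitochondrial PEP carboxykinase, fell to 39.1% in RPE-1 (-1.36, SE 0.21, adjusted p = 7.85e-10) and to 26.6% in HCT116 (-1.91, SE 0.21, adjusted p = 6.51e-19).

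ASNS, asparagine synthetase, is a classical ATF4 target that holds the core 68 bases before a start. It lies on chromosome 7, from 97851677 to 97872542 on the minus strand (GRCh38, GENCODE 44). ASNS fell to 21.7% in RPE-1 (log2FC -2.21, SE 0.39, adjusted p = 1.53e-07), the lowest value of any member in that line and close to that of PSAT1. In HCT116 it fell to 32.8% (-1.61, SE 0.34, adjusted p = 1.57e-05). Its base mean was 130.5, and its SEs were above the median of the members. In GENCODE 44, 49.3% of its exon bases also belong to ENSG00000284707, a long noncoding RNA gene on the same strand. That gene was listed with a base mean of 18.4 and log2FCs of 0.43 (SE 0.32, adjusted p = 0.344) and 0.60 (SE 0.36, adjusted p = 0.227), neither of them called. How the reads were divided between the genes was not tested, and the value of ASNS is uncertain to that extent.

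Of the 5 amino acid transporters, 4 (80%) were lower in RPE-1 and 3 (60%) in HCT116, against 20.8% and 18.4% of all genes whose base mean reached 100. SLC7A5 and SLC3A2 form the LAT1 exchanger for large neutral amino acids. SLC3A2, its heavy chain, fell to 45.3% in RPE-1 (log2FC -1.14, SE 0.10, adjusted p = 2.98e-26) and to 59.4% in HCT116 (-0.75, SE 0.10, adjusted p = 6.96e-12). SLC7A5, the light chain, fell to 42.5% in RPE-1 (-1.23, SE 0.28, adjusted p = 6.35e-05). Its log2FC in HCT116 was -0.56 (SE 0.28, adjusted p = 0.135). SLC7A1, the carrier of arginine and lysine, fell to 62% and 62.6% in RPE-1 and HCT116 (adjusted p = 7.89e-08 and 1.78e-07). SLC1A5, the glutamine carrier ASCT2, fell to 42% in RPE-1 (-1.25, SE 0.17, adjusted p = 6.67e-12), and stood at 82.2% in HCT116 (95% interval 65.1% to 104%, adjusted p = 0.243). SLC38A2, the sodium-coupled carrier SNAT2 of small neutral amino acids, was the exception. It rose 1.45-fold in RPE-1 (0.54, SE 0.13, adjusted p = 0.000332) and fell to 72.7% in HCT116 (-0.46, SE 0.13, adjusted p = 0.00341).

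The tRNA synthetases, which load amino acids onto their tRNAs, had negative log2FCs throughout. They ran from -0.85 to -0.03 in RPE-1, where 7 of 8 were lower, and from -1.03 to -0.19 in HCT116, where 5 of 8 were lower. Those are 87.5% and 62.5%, against 20.8% and 18.4% of all genes whose base mean reached 100. AARS1, for alanine, had the smallest SE of the members, 0.05 in both lines. It fell to 55.5% in RPE-1 (log2FC -0.85, adjusted p = 2.46e-68) and to 49% in HCT116 (-1.03, adjusted p = 4.61e-103). MARS1, for methionine, fell to 56.2% and 58.5% (SE 0.06 in both, adjusted p = 2.71e-39 and 2.25e-34). WARS1, for tryptophan, fell to 73.8% in RPE-1 (SE of the log2FC 0.09, adjusted p = 1.78e-05) and to 49.8% in HCT116 (SE 0.09, adjusted p = 2.56e-25). GARS1, for glycine, fell to 67.6% and 68.6% (adjusted p = 5.77e-07 and 1.99e-06), and CARS1, for cysteine, to 75.7% and 71.8% (adjusted p = 8.37e-05 and 1.57e-06).

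NARS1 and EPRS1 were called in RPE-1. NARS1, for asparagine, fell to 63.5% in RPE-1 (log2FC -0.65, SE 0.14, adjusted p = 1.35e-05), and its log2FC in HCT116 was -0.32 (SE 0.14, adjusted p = 0.0705). EPRS1, the fused synthetase for glutamate and proline, fell to 65.4% in RPE-1 (-0.61, SE 0.16, adjusted p = 0.000828), with a log2FC of -0.21 (SE 0.16, adjusted p = 0.376) in HCT116. The differences between the lines, -0.34 for NARS1 and -0.40 for EPRS1, did not pass the test (adjusted p = 0.228 and 0.232). SARS1, for serine, stood at 97.7% in RPE-1 (95% interval 85.5% to 112%, adjusted p = 0.887) and at 87.5% in HCT116 (76.6% to 100%, adjusted p = 0.141). Decreases of the size of AARS1 lay outside both intervals of SARS1.

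A call in one line alone does not show that the lines differ, so the difference of the log2FCs, RPE-1 minus HCT116, was divided by the root of the summed squared SEs and its p-value adjusted over the same 20764 genes. Controls were separate for each line. It passed for 15 of 34 genes (44.1%), compared with 21.7% of all genes tested and 28.3% of those whose base mean reached 100. In 9 genes the response was higher in RPE-1, as it was in 11.3% of all genes, and in 6 it was lower, as in 10.4%. It passed for 5 of 8 factors, 2 of 5 feedback and effector genes, 3 of 8 enzymes, 3 of 5 transporters and 2 of 8 synthetases. Over the 34 genes, both responses correlated with Pearson's r = 0.295 and Spearman's rho = 0.431. Genes, not samples, were the points, and their SEs differ widely. Over the 13990 genes whose base mean reached 100, r was 0.634 and rho was 0.461, and over all 20764 genes r was 0.508 and rho was 0.370. The r of the members was thus below both, whereas their rho lay between them.

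**Figure D2:**
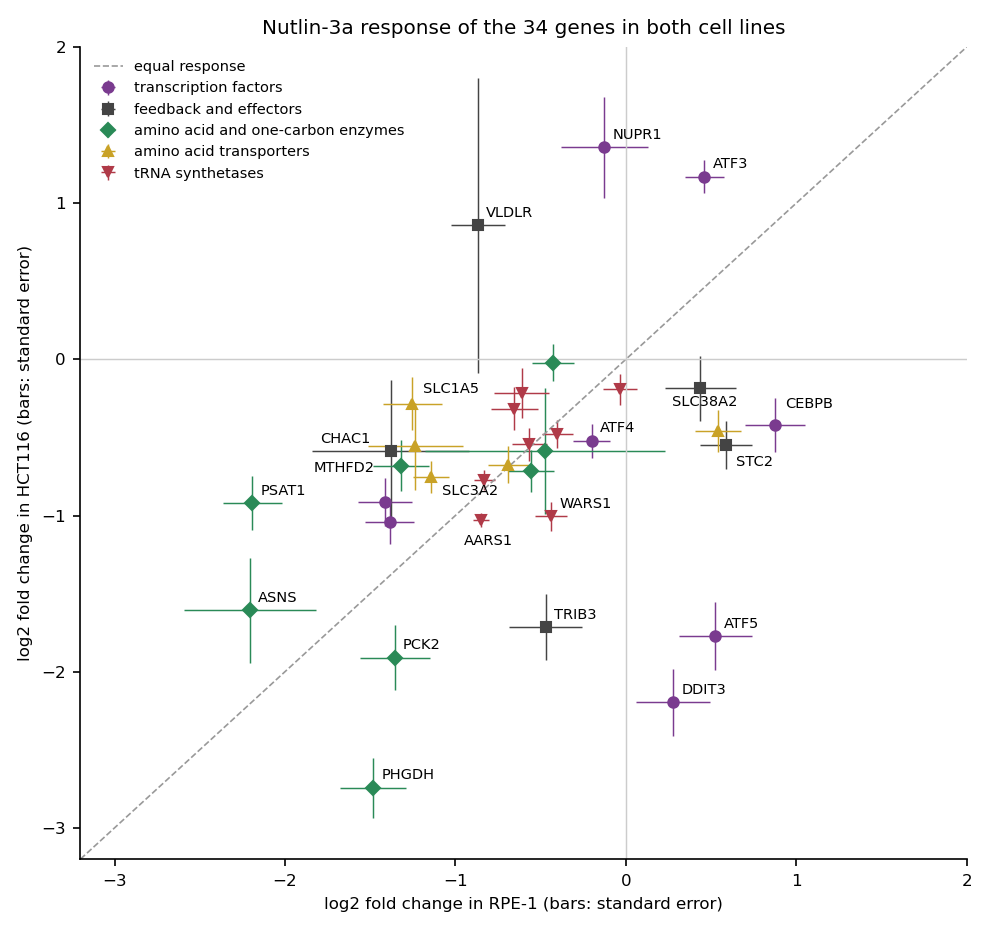
Log2 fold change in RPE-1 (x axis) against HCT116 (y axis) for the 34 genes, with symbols by role and bars of 1 standard error; the dashed line marks equal responses. Enzymes, transporters and synthetases mostly lie in the lower left. DDIT3, ATF5, STC2, SLC38A2, CEBPB and PPP1R15A lie to the lower right, and NUPR1, ATF3 and VLDLR lie above 0 in HCT116.

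On the side of a higher response in RPE-1, the differences were largest for DDIT3 (2.48, SE 0.31, adjusted p = 5.1e-14) and ATF5 (2.30, SE 0.30, adjusted p = 3.11e-12). CEBPB (1.29, SE 0.25, adjusted p = 3.44e-06), PHGDH (1.26, SE 0.27, adjusted p = 5.38e-05), TRIB3 (1.25, SE 0.30, adjusted p = 0.000415), STC2 (1.14, SE 0.21, adjusted p = 2.49e-06) and SLC38A2 (1.0, SE 0.19, adjusted p = 3.01e-06) followed. WARS1 differed by 0.57 (SE 0.13, adjusted p = 0.000229). For PHGDH and WARS1 this means a smaller decrease in RPE-1, not a rise. TRIB3 and DDIT3 were not called in RPE-1 (log2FC -0.47 and 0.28), so no rise was shown for them either. AARS1 differed by 0.18 (SE 0.07), a small gap that passed only narrowly (adjusted p = 0.0409).

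On the opposite side, NUPR1 differed by -1.48 (SE 0.41, adjusted p = 0.00266), PSAT1 by -1.27 (SE 0.24, adjusted p = 4.38e-06) and SLC1A5 by -0.97 (SE 0.24, adjusted p = 0.000759). ATF3 rose less in RPE-1 (-0.71, SE 0.15, adjusted p = 6.89e-05), and MTHFD2 (-0.64, SE 0.23, adjusted p = 0.0306) and SLC3A2 (-0.39, SE 0.15, adjusted p = 0.0391) fell further there. PHGDH and PSAT1, neighbours in serine synthesis, thus differed between the lines in opposite directions. Narrow intervals around 0 were found for MARS1 (-0.23 to 0.11), GARS1 (-0.31 to 0.27), SLC7A1 (-0.35 to 0.32) and CARS1 (-0.18 to 0.33), which bound any difference of their responses. For VLDLR (-3.60 to 0.15), ASNS (-1.61 to 0.41), CHAC1 (-2.06 to 0.48) and ALDH1L2 (-1.48 to 1.70), the intervals were too wide to tell.

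**Figure D3:**
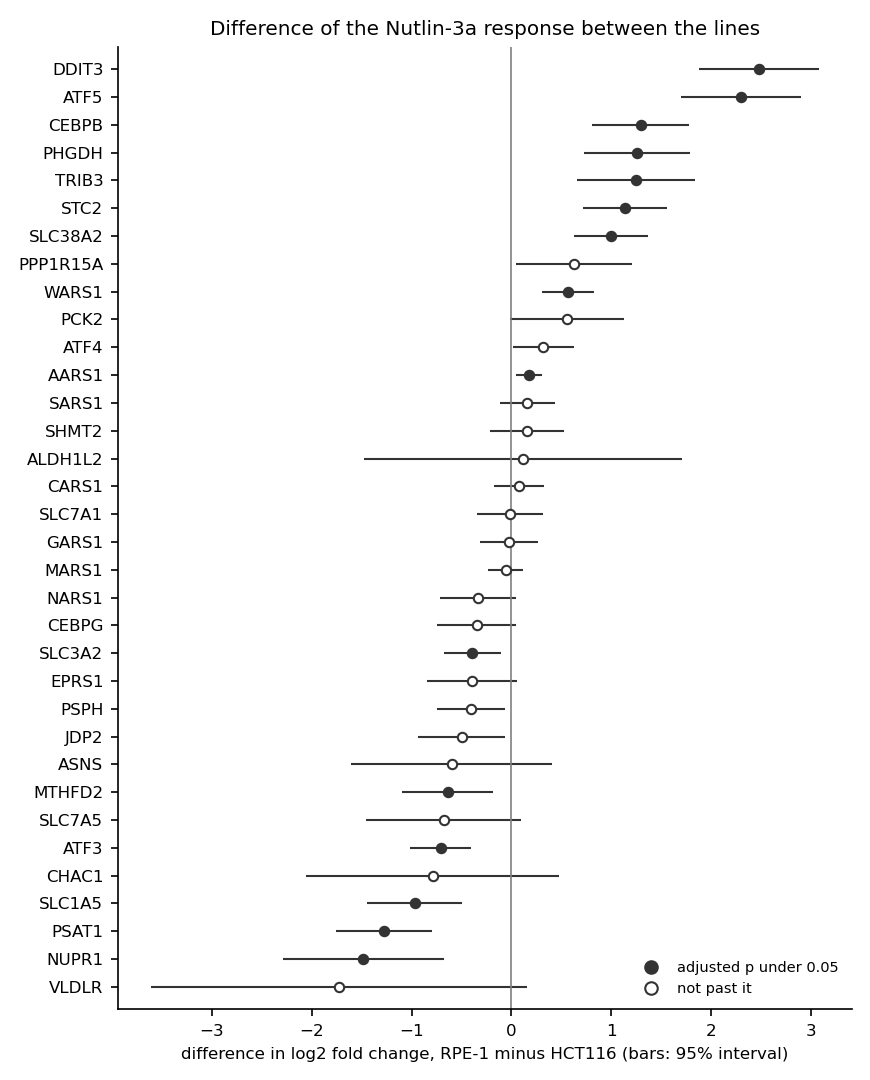
Difference of the log2 fold changes, RPE-1 minus HCT116 (x axis), for each of the 34 genes in order of size; bars are 95% intervals and filled points have an adjusted p under 0.05. DDIT3 and ATF5 lead at 2.48 and 2.30, and PSAT1 and NUPR1 lie lowest among the filled points at -1.27 and -1.48.

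Set beside the promoter letters, 12 of the 13 genes with the core were lower and 1, ATF3, was higher in RPE-1, and 9 were lower and 1, again ATF3, was higher in HCT116. Of the 17 genes whose promoters lacked it, 8 were lower and 4 higher in RPE-1 and 11 were lower in HCT116, where VLDLR had their one positive value and was not called. Median log2FCs were -0.85 with the core and -0.44 without it in RPE-1, and -0.68 and -0.56 in HCT116. Among all listed genes whose base mean reached 100 and whose promoters were in the table, 24.8% of the 270 with the core and 21.3% of the 9762 without it were lower in RPE-1, and 28.5% and 19% were lower in HCT116. Those 270 include the 13 members with the core, which were chosen as genes of the ATF4 axis. Shares without the members were not taken, so no gap between genes with and without the core is shown outside them. Members without the core included PHGDH, PSAT1, MTHFD2 and PCK2, which fell in both lines. Absence from these windows says nothing of sites elsewhere.

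Related genes were read from further lists to place the axis among its neighbours. Among genes whose base mean reached 100, 20.8% were lower and 29.7% higher in RPE-1, and 18.4% and 22.4% in HCT116. A share near these is no result about a list, here and in the lists that follow. Upstream, the 18 genes of eIF2 kinases and translation initiation had median log2FCs of -0.01 in RPE-1 and 0.07 in HCT116. Of these, 3 were lower and 3 higher in RPE-1 (16.7% each), and 1 was lower (5.56%) and 5 higher (27.8%) in HCT116. EIF2AK4, the kinase GCN2 that senses uncharged tRNAs, rose in RPE-1 (log2FC 0.19, SE 0.07, adjusted p = 0.0307) and in HCT116 (0.55, SE 0.07, adjusted p = 3.44e-12). EIF2AK1, the heme-regulated kinase, had a log2FC of -0.04 in RPE-1 (adjusted p = 0.715) and fell in HCT116 (-0.27, SE 0.07, adjusted p = 0.000326). OMA1, the mitochondrial protease that cleaves DELE1 to activate EIF2AK1, rose in both lines (0.49 and 0.63, adjusted p = 0.0271 and 0.00213), and DELE1 rose in RPE-1 (0.67, SE 0.15, adjusted p = 8.23e-05) with 0.13 in HCT116 (adjusted p = 0.615). EIF2S1, the subunit that the kinases phosphorylate, fell in RPE-1 (-0.67, SE 0.13, adjusted p = 4.09e-06), as did its partner subunit EIF2S2 (-0.39, SE 0.13, adjusted p = 0.00954), with -0.02 and -0.21 in HCT116 (adjusted p = 0.945 and 0.251). Transcript levels do not measure kinase activity or phosphorylation.

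Of 15 other cytosolic synthetases and their scaffold proteins, 7 (46.7%) were lower and 1 (6.67%) higher in RPE-1 (median -0.24). In HCT116, 3 (20%) were lower and 2 (13.3%) higher (median 0.14). YARS1, for tyrosine, was lower in both lines (-0.51 and -0.66, adjusted p = 1.51e-07 and 3.85e-12). FARSB, a subunit for phenylalanine, and LARS1, for leucine, fell in RPE-1 (-0.74 and -0.63, adjusted p = 7.13e-11 and 8.68e-05), with -0.07 and -0.28 in HCT116 (adjusted p = 0.722 and 0.147). IARS1, for isoleucine, fell in HCT116 (-0.52, SE 0.10, adjusted p = 2.35e-06), with -0.23 in RPE-1 (adjusted p = 0.066). QARS1, for glutamine, rose in RPE-1 (0.46, SE 0.10, adjusted p = 1.6e-05), with 0.18 in HCT116 (adjusted p = 0.179). RARS1, for arginine, rose in HCT116 (0.34, SE 0.13, adjusted p = 0.0375), with -0.07 in RPE-1 (adjusted p = 0.776). KARS1, for lysine, was lower in RPE-1 (-0.25, adjusted p = 0.00196) and higher in HCT116 (0.19, adjusted p = 0.0311).

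Among 17 mitochondrial synthetases, 5 (29.4%) were lower and 1 (5.88%) higher in RPE-1 (median -0.07). In HCT116, 1 (5.88%) was lower and 7 (41.2%) were higher (median 0.18). NARS2, for asparagine, fell in RPE-1 (-1.02, SE 0.10, adjusted p = 6.28e-22) and stood at -0.04 in HCT116 (adjusted p = 0.845), a difference that passed its test (-0.98, SE 0.14, adjusted p = 4.08e-10). PARS2, for proline, rose in RPE-1 (0.66, SE 0.19, adjusted p = 0.00267), with 0.14 in HCT116 (adjusted p = 0.665). AARS2 and WARS2, for alanine and tryptophan, rose in HCT116 (0.62 and 0.53, adjusted p = 1.64e-07 and 5.84e-05), with 0.14 and 0.13 in RPE-1 (adjusted p = 0.339 and 0.398). Their cytosolic counterparts AARS1 and WARS1 fell in both lines.

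Of 11 other one-carbon and glycine genes, 9 (81.8%) were lower and 1 (9.09%) was higher in RPE-1 (median -0.71). In HCT116, 5 (45.5%) were lower and 1 (9.09%) was higher (median -0.26). SHMT1, the cytosolic counterpart of SHMT2, fell to 28.3% and 38.2% (-1.82 and -1.39, adjusted p = 1.54e-96 and 1.74e-73). ALDH1L1, the cytosolic counterpart of ALDH1L2, rose in HCT116 (1.41, SE 0.27, adjusted p = 1.36e-06) and was not resolved in RPE-1 (-0.04, SE 1.11).

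Of 13 other amino acid transporters, 5 (38.5%) were lower and 3 (23.1%) higher in RPE-1 (median -0.04). In HCT116, 6 (46.2%) were lower and 2 (15.4%) higher (median -0.37). SLC7A11, the cystine carrier that pairs with SLC3A2, fell to 28.3% in RPE-1 and 29.8% in HCT116 (-1.82 and -1.75, SE 0.26 in both, adjusted p = 2.34e-11 and 1.46e-10). SLC1A4, a carrier of neutral amino acids including serine, fell to 32.2% and 15.5% (-1.64 and -2.69, adjusted p = 3.23e-19 and 6.56e-48). SLC43A2, the carrier LAT4, rose 3.93-fold and 1.98-fold (1.97 and 0.98, adjusted p = 2.06e-35 and 4.19e-10). SLC7A6, a cationic amino acid exchanger, rose in both (0.23 and 0.81, adjusted p = 0.0154 and 5.75e-23), and SLC7A8, the carrier LAT2, rose in RPE-1 (0.67, SE 0.21, adjusted p = 0.00484) with -0.35 in HCT116 (adjusted p = 0.116). Both SLC7A6 and SLC7A8 use SLC3A2 as their heavy chain, which fell.

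Of 15 other genes reported as ATF4 targets, 5 (33.3%) were lower and 9 (60%) higher in RPE-1 (median 0.50). In HCT116, 6 (40%) were lower and 5 (33.3%) higher (median -0.24). The 2 that rose most in each line, BBC3 (2.65 and 1.66, adjusted p = 1.91e-42 and 6.83e-18) and GDF15 (2.10 and 1.77, adjusted p = 7.47e-05 and 0.000179), are direct p53 targets as well. CTH, which makes cysteine from cystathionine, fell to 17% in RPE-1 (-2.56, SE 0.21, adjusted p = 5.49e-34) and stood at -0.25 (SE 0.16, adjusted p = 0.271) in HCT116, and the lines differed (-2.31, SE 0.26, adjusted p = 4.47e-17). GPT2, a mitochondrial alanine transaminase, fell in both lines (-0.80 and -1.16, adjusted p = 3.83e-09 and 1.65e-18), as did XPOT, which exports tRNAs from the nucleus (-0.80 and -0.79, adjusted p = 4.75e-12 and 1.47e-11). FGF21, a stress hormone with a base mean of 26.2, fell in HCT116 (-2.91, SE 0.76, adjusted p = 0.000799), while its -3.07 in RPE-1 (SE 1.45, adjusted p = 0.0925) did not pass.

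The ATF6 and XBP1 arms of the unfolded protein response, which run beside the integrated stress response when proteins misfold, were the last list. Of its 18 genes, 1 (5.56%) was lower and 5 (27.8%) were higher in RPE-1 (median 0.08). The share of higher genes there was near the 29.7% of all genes whose base mean reached 100. In HCT116, 7 (38.9%) were lower, against 18.4% of those genes, and 1 (5.56%) was higher (median -0.20). ERN1, which encodes the sensor IRE1, rose in RPE-1 (0.70, SE 0.11, adjusted p = 1.84e-09) while XBP1, whose mRNA IRE1 splices, fell there (-0.39, SE 0.11, adjusted p = 0.00208), and neither was called in HCT116 (-0.12 and -0.14, adjusted p = 0.375 and 0.411). HERPUD1, a gene of protein degradation at the endoplasmic reticulum that ATF4 can also induce, was higher in RPE-1 (0.62, SE 0.15, adjusted p = 0.000228) and lower in HCT116 (-0.61, SE 0.15, adjusted p = 0.000372). It was among 2 of the 18 genes that were called in opposite directions, as were 2.05% of all genes. EDEM1, of the same degradation pathway, rose and MANF, a secreted stress protein, fell in HCT116 (0.54 and -0.58, adjusted p = 0.00185 and 0.000343), with 0.14 and -0.25 in RPE-1 (adjusted p = 0.516 and 0.181).

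**Figure D4:**
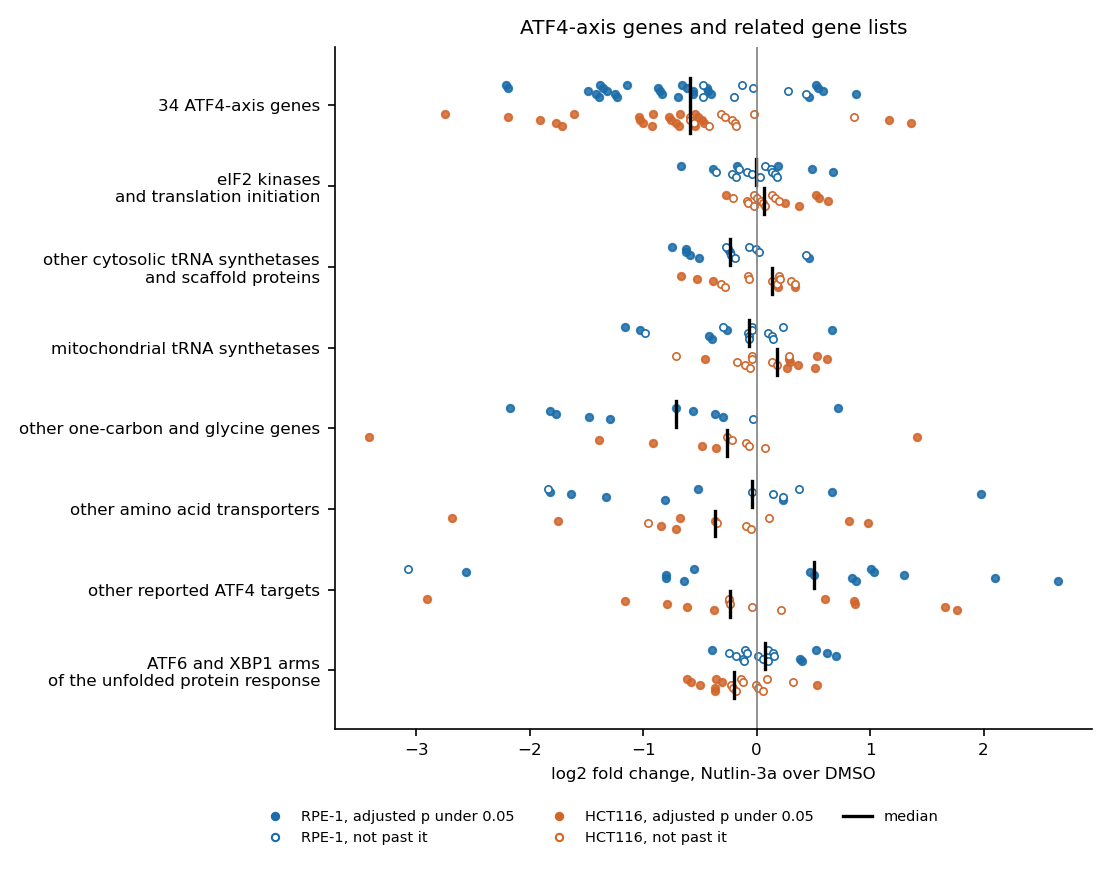
Log2 fold change of Nutlin-3a over DMSO (x axis) for the 34 genes and 7 related lists, 1 point per gene, with RPE-1 in blue above HCT116 in orange, filled where the adjusted p was under 0.05, and with the median as a black bar. The medians of the 34 genes lie at -0.59 in both lines, and those of the related lists between -0.71 and 0.50.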

How the data were processed

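RNA-seq libraries of RPE-1 hTERT and HCT116 cells, 3 per treatment and line, were grouped by the labels. Per the study's methods, the authors trimmed and corrected reads, removed ribosomal reads, mapped to hg38 with segemehl, counted uniquely mapped reads on exons by strand with featureCounts (Ensembl 102) and compared Nutlin-3a with DMSO by DESeq2. The submitters' processing notes name Trimmomatic 0.39, cutadapt 3.3, SAMtools 1.12, featureCounts 2.0.1 and DESeq2 1.32.0, of which cutadapt, featureCounts and DESeq2 have other versions in the methods. The labels describe ribosomal RNA depletion, the methods poly(A) selection, and neither names batches.

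The deposited tables hold only the authors' own comparisons, 1 per line, which are the values described here. The deposited log2 values are the fold change and its standard error, without values per library. The deposited score is their quotient, the deposited p-value is the two-sided Wald p with its Benjamini-Hochberg adjustment, and the base mean, a signal in the deposited tables, averages normalized counts. Adjusted p-values were recomputed from fold change and standard error over all genes and differed from the deposited ones by at most 7.16e-15. No count model could be fitted. Sequencing depth is unknown, and 0 columns of per-sample values were left unused.

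Both lines were compared by the difference of the log2 fold changes, divided by its standard error (both errors added in quadrature), with a two-sided normal p adjusted by Benjamini-Hochberg over genes whose base mean reached 10. Since both comparisons share their base means, they may come from one fit and share its dispersions, so that the standard errors may not be independent. The script was tested on simulated data. Intervals are 95% Wald intervals. Positions and overlaps are from GENCODE 44 (GRCh38), promoters from RefSeq (GRCh38.p14).

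The members and lists were chosen with earlier results of these data known, and counts over them are descriptions. Named were all 34 members, MDM2 and CDKN1A, and from each further list, per line, up to 2 genes with the largest called change in each direction. Of the genes so chosen, 3 are not reported here. AMT is not listed in the comparisons. ENSG00000284707 was named after its values were seen, for its overlap with ASNS. Alternatives covered the limits on adjusted p, base mean and fold change, centring on the median, and wider standard errors. Scripts ran under Python 3.11.15 (pandas 2.3.3, numpy 2.4.6, matplotlib 3.10.9, scipy 1.17.1).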

Additional observations from a re-analysis of the deposited data

Results flagged for a closer look

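The response to Nutlin-3a differed between the lines for 15 of the 34 genes by the test of the difference itself (RPE-1 minus HCT116, on the log2 scale, adjusted p under 0.05 over 20764 genes, of which 21.7% passed). DDIT3 (2.48) and ATF5 (2.30) differed most, followed on the same side by CEBPB (1.29), PHGDH (1.26), TRIB3 (1.25), STC2 (1.14), SLC38A2 (1.0), WARS1 (0.57) and AARS1 (0.18). On the opposite side lay NUPR1 (-1.48), PSAT1 (-1.27), SLC1A5 (-0.97), ATF3 (-0.71), MTHFD2 (-0.64) and SLC3A2 (-0.39). The lines also differed in medium, and the part of the medium in these differences cannot be told apart from that of the line. With no values per library, no sample could be set against the others of its group.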

How the results depend on the processing

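Over all alternatives, 328 of 390 values of called single genes stayed called, and 6 of 222 values of genes not called became called. Taking out a median was the only alternative that changes an estimate, and it turned no direction among the 34 genes. A minimum change of 1 on the log2 scale left 11 genes called in RPE-1, 11 lower and 0 higher, and 11 in HCT116, 9 of them lower. For the difference between the lines, a minimum of 1 left 8 genes, of which 2 were lower in RPE-1, and standard errors 1.5 times as wide likewise left 8, of which 2 were lower. These wider errors left 3 genes higher in RPE-1, without ATF5 (adjusted p = 0.317) and STC2 (adjusted p = 0.0509), and also lost CHAC1, PSPH and EPRS1 there, and STC2 and SLC38A2 in HCT116. An adjusted p under 0.01 lost ATF5 and CHAC1 in RPE-1, and MTHFD2, SLC3A2 and AARS1 for the difference. AARS1 was also lost without a minimum on base mean (adjusted p = 0.0505). With the median of all genes, 0.08 in both lines, taken out, ATF4 (-0.28, adjusted p = 0.0348) and TRIB3 (-0.55, adjusted p = 0.0347) became called lower in RPE-1 and ATF5 (0.45, adjusted p = 0.0993) was lost. In HCT116, CEBPB (-0.50, adjusted p = 0.0199), SARS1 (-0.27, adjusted p = 0.0248) and NARS1 (-0.39, adjusted p = 0.0177) became called. CEBPB was also called with adjustment over genes whose base mean reached 10 (adjusted p = 0.0488). The share of members with the promoter core was 26.7% where only bases before the start were searched. No paired analysis was possible because replicates are already combined in both tables, and for the same reason no replicate block was fitted and no library was left out. The depth is unknown and the standard errors alone limit what could be seen, most for VLDLR, ALDH1L2, CHAC1 and ASNS.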
